A study of Mus musculus with 4 samples.

Results

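The SR and hnRNP splicing factor genes were taken as all protein-coding RefSeq genes of mouse build mm10 whose symbol begins with Srsf and a number or with Hnrnp. The rule found 32 genes of 21887, of which 11 are Srsf and 21 are Hnrnp genes. The symbol alone chose them, and no measured value entered the rule. One of them, Hnrnpa1l2-ps2, carries a pseudogene symbol although the gene table lists it as protein-coding, and it was kept.

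Dimethylation of lysine 79 of histone H3 (H3K79me2) was mapped by ChIP-seq in C57BL/6 thymocytes at the double-negative DN3 stage. The cells had developed in vitro from haematopoietic stem cells (HSCs) on OP9-DL1, a stromal line that presents a Notch ligand. The cytokines Flt-3L (at 5 ng/mL) and IL-7 (at 2 ng/mL) were present in both conditions. Control cells received DMSO, and inhibitor cells received A939572, which blocks the stearoyl-CoA desaturase SCD1. Each condition had 1 ChIP library, and the 2 matching input samples are not analysed here. How many cultures or mice stood behind a library is not given in the sources used here, and no difference between conditions has a replicate check or a p-value. The values are the peaks the authors called in each library, so the read depth is unknown. The mark in bulk cells also cannot tell more cells with the mark from more mark per cell.

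SR proteins carry RNA recognition motifs and a tail rich in arginine and serine, and they mostly bind exonic enhancers and favour the use of the exon. Heterogeneous nuclear ribonucleoproteins (hnRNPs) coat nascent transcripts, and many of them silence exons. In T cells both groups set the splicing of receptors such as CD45. H3K79me2 is laid down by DOT1L behind elongating RNA polymerase II, and it is usually densest just after the start of active genes.

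The control list held 124962 peaks and the inhibitor list 35018, but 804 and 6528 of these had q of at most 0.05, and the total covered lengths were 235 Mb and 234 Mb. The part of this list-wide difference in the values of the splicing factor genes was not tested. The labelled cell type was compared with marker lists. Of 14 T-lineage markers, 10 were marked (peaks over at least 50% of the gene body) under DMSO and 13 under A939572. With peaks of q at most 0.05 alone, 7 and 12 were marked. Ptcra was marked in neither list (18.1% under DMSO, then 47.1%), and no peak there passed that q. Cd3e had 0% coverage under DMSO and 100% under A939572, the latter only by peaks with q above 0.05. Of 10 markers of the OP9 feeder, 8 B cell markers and 8 myeloid markers, 0, 0 and 0 were marked under DMSO and 1, 1 and 2 under A939572. Among the defining genes, Col1a1 and Pdgfra of the feeder, Cd79a of B cells and Cd14 of myeloid cells had 0% coverage in both lists. Other markers were covered more under A939572: the feeder genes Thbs1 (11.8% under DMSO, then 59.0%) and Pdgfrb (9.18%, then 45.3%), the B cell gene Blk (22.2%, then 75.3%), and the myeloid genes Cd68 (0%, then 100%) and Fcer1g (0%, then 84.5%). Still others were covered less: the myeloid genes Elane (23.8%, then 0%) and Mpo (15.6%, then 0%), the B cell gene Ms4a1 (10.7%, then 0%) and the feeder gene Vcam1 (4.25%, then 0%). The control peaks at these genes had q above 0.05. The median differences of the feeder, B cell and myeloid lists were 0, 0 and −3.38 points. A part of the other markers in the splicing factor values was not tested.

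Most SR and hnRNP genes lay under H3K79me2 peaks in both conditions. Under DMSO 22 of 32 were marked, 68.8% (95% Wilson interval 51.4 to 82.0), against 5.47% of all coding genes. Under A939572 30 of 32 were marked, 93.8% (79.9 to 98.3), against 26.1%. When the peaks were limited to q of at most 0.05, 16 were marked under DMSO and 30 under A939572, against 1.33% and 19.6% of all coding genes. A control peak at that q touched 26 of the 32 genes, whereas 3.92% of all coding genes had one. For inhibitor peaks at that q the count was 30, against 34.7%.

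The covered percent was higher under A939572 for 29 genes, equal for 2 and lower for 1. For differences of any size no share over all coding genes is given. The median was 59.9% under DMSO and 100% under A939572, against 2.24% and 0.446% over all coding genes, and the median difference was 35.1 points against 0. The A939572 peaks covered at least 25 points more of the body for 18 genes, against 30.1% of all coding genes, and at least 25 points less for 0, against 3.07%. Of the 14 genes without such a gain, 10 were already covered over more than 75% under DMSO and had no room for it. Another 2, Srsf11 (24.7 points) and Hnrnph3 (24.3), lay just under 25, and the last 2 were Srsf12 and Hnrnpa1l2-ps2. Hnrnpk, at 49.99% under DMSO, fell just short of being marked there. Among genes marked under A939572 at q of at most 0.05, 18 of 30 SR and hnRNP genes gained at least 25 points. That is 60% (42.3 to 75.4), against 90.4% of 4287 coding genes. Their median difference was 37.0 points against 56.8, and their median coverage under DMSO was 61.4% against 25.9%. Choosing genes by their inhibitor coverage itself favours a gain, and without that choice the share over all coding genes was 30.1%. High coverage under DMSO also leaves less room for a gain. The lower share and median difference are therefore not results separate from the DMSO coverage.

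**Figure D1:**
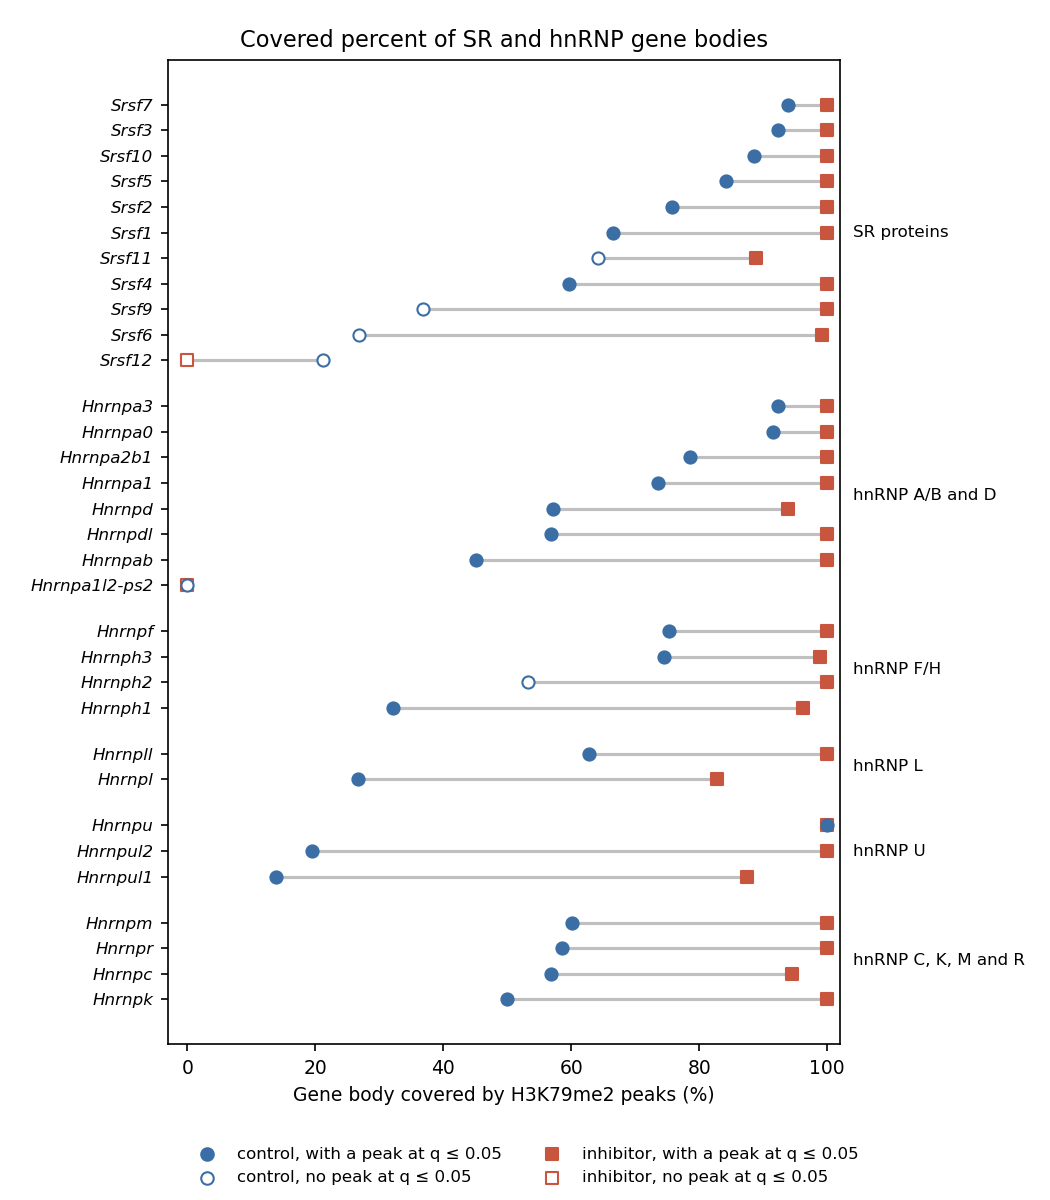
Percent of each gene body covered by H3K79me2 peaks in the control library (circles) and the inhibitor library (squares), 1 library each, by protein family. Filled symbols mark genes with a peak at q of at most 0.05. The squares sit between 82.8% and 100% for 30 of 32 genes, while the circles spread from 0% to 100%.

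The promoters are shown for 3 genes that differ in whether peaks reached the sequence before the start site. Each sequence is the RefSeq (GRCm38.p6) strand of the gene, the 250 bases before the 5′-most listed start, 5′ to 3′, with matches to the motifs named below in capitals. Srsf3 (chr17:29032410-29032659, plus strand) was covered over all 250 bases in both lists. Hnrnpc (chr14:52104022-52104271, minus strand) was covered over 0 bases under DMSO, whose peak began 62 bp after the start, and over 250 under A939572. Srsf6 (chr2:162931258-162931507, plus strand) was covered over 0 bases in both lists, with the inhibitor peak beginning 46 bp after the start.
Srsf3: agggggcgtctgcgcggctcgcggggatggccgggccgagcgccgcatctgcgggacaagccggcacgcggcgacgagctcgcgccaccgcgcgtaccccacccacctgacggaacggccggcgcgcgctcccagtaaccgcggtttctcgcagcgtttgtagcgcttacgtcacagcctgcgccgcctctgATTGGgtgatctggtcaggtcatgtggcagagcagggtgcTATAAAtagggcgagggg
Hnrnpc: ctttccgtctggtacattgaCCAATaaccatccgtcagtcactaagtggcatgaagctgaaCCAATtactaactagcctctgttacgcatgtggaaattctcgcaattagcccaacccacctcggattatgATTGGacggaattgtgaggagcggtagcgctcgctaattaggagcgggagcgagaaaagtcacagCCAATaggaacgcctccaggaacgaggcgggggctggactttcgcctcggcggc
Srsf6: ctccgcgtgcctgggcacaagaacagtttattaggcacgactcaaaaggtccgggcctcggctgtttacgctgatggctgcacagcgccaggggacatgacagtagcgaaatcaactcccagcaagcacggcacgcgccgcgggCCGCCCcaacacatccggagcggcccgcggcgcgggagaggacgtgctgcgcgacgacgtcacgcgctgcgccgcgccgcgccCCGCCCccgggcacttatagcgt

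Motifs were searched by their letters on both strands. TATAAA stood for the box bound by the TATA-binding protein. The letters CCAAT stood for the element that the factor NF-Y binds. For the GC box, bound by Sp1, the letters were GGGCGG. The letters of the ETS type, after a family of factors with many members in blood cells, were CCGGAAG. No match overlaps another in these 3 sequences. Srsf3 held 1 TATA-type match and 1 for NF-Y, Hnrnpc 4 for NF-Y and Srsf6 2 GC box matches. Over the 30 splicing factor promoters, 23 held a GC box, against 42.7% of 17492 coding promoters of the same length. An NF-Y match lay in 16 of 30, against 36.5%, a TATA-type match in 4, against 12.4%, and an ETS-type match in 6, against 9.15%. The number of CG dinucleotides in the 250 bases had a median of 23, against 10 over all coding promoters, from 2 at Hnrnpa1l2-ps2 to 46 at Hnrnpa0. Srsf12, with no inhibitor peak, had 19, within the range of the covered genes. These matches describe letters and do not show that a factor binds.

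Of the 11 SR protein genes, 8 were marked under DMSO and 10 under A939572. Srsf3, which encodes the smallest classical SR protein (chromosome 17, 29032660 to 29043372), was covered over 92.4% under DMSO and 100% under A939572. Its control peak of 11.2 kb was enriched 6.05-fold, and its −log10 q of 51.8 ranked 2 among the 124962 control peaks. Its inhibitor peak of 24.4 kb, with a fold of 5.02 and a −log10 q of 32.4, ranked 6 of 35018 by q. Srsf3 was thus near the top of both lists, each judged by its own order. Fold and q are the authors' own values per peak, and they are not compared between lists.

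Srsf7, a close relative that binds similar RNA motifs (chromosome 17, 80200080 to 80207369), was covered over 93.9% and 100%, where here and in later pairs the DMSO value comes first. Srsf10, which acts as a splicing repressor when dephosphorylated, was covered over 88.6% and 100%, and Srsf5 over 84.1% and 100%. For Srsf2, the SC35 protein that marks nuclear speckles, the values were 75.8% and 100%, although its control peak also touched the coding genes Mettl23 and Mfsd11. Srsf1, the founding SR protein (chromosome 11, 88046499 to 88053757), was covered over 66.6% by 1 control peak of 4.84 kb and over 100% by 1 inhibitor peak of 16.1 kb. Srsf3 and these 5 genes each had a single control peak at q of at most 0.05.

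Srsf4, which has a long arginine-serine tail, was covered over 59.6% under DMSO by 2 peaks, of which the one of 12.1 kb next to the start passed q of 0.05, and over 100% under A939572. Srsf11, Srsf9 and Srsf6 had weak control peaks alone, that is with q above 0.05. Srsf11 was covered over 64.2% by such peaks, Srsf9 over 36.8% and Srsf6 over 26.9%. Under A939572 the same genes were covered over 88.9%, 100% and 99.2% by peaks that passed, with −log10 q of 9.21, 4.78 and 5.69. Srsf6 (chromosome 2, 162931508 to 162937121) and Srsf9 (chromosome 5, 115327163 to 115333843) therefore had the largest gains among SR genes, 72.3 and 63.2 points.

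Srsf12, an SR-related gene of restricted expression (chromosome 4, 33208991 to 33233343), went the other way. It was covered over 21.3% under DMSO by 4 peaks of 0.432 to 3.51 kb, with −log10 q between 0 and 0.01, and over 0% under A939572. No peak that passed q of 0.05 touched it in either list. Hnrnpa1l2-ps2 had no peak in either list.

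Among the hnRNP A/B and D genes, whose products bind UAG-containing or AU-rich RNA, 6 of 8 were marked under DMSO and 7 under A939572. Hnrnpa3 was covered over 92.4% and 100% and Hnrnpa0, a short gene of 2.68 kb, over 91.6% and 100%. Hnrnpa2b1 (chromosome 6, 51460434 to 51470048) was covered over 78.5% and 100%, and Hnrnpa1 (chromosome 15, 103239943 to 103246698), a general exon silencer, over 73.6% and 100%. Hnrnpd, which encodes the mRNA decay factor AUF1, was covered over 57.1% and 93.8%, and its relative Hnrnpdl over 56.8% and 100%. Hnrnpab was covered over 45.2% and 100%. All 7 genes of the group other than Hnrnpa1l2-ps2 had a control peak at q of at most 0.05.

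The hnRNP F/H proteins bind runs of guanines. Hnrnpf was covered over 75.3% and 100%, Hnrnph3 over 74.6% and 98.9%, and Hnrnph2, on the X chromosome, over 53.3% and 100%. At Hnrnpf the control peak with q of at most 0.05 covered 60.1% of the body. The Hnrnph2 control peak was weak, with a −log10 q of 0.65. Hnrnph1 had a strong but narrow control peak of 3.63 kb (−log10 q of 7.59), so that 32.2% of its body was covered, and 96.1% under A939572.

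Hnrnpll, known for directing CD45 exon skipping in activated T cells (chromosome 17, 80029487 to 80062268), was covered over 62.7% under DMSO by 5 separate peaks. Of these 1 passed q of 0.05, and it covered 32.8% of the body. Under A939572 1 peak of 36.3 kb covered the whole gene. Its paralog Hnrnpl, which binds CA repeats (chromosome 7, 28808546 to 28822268), was covered over 26.7% and 82.8%, the lowest inhibitor value among the 30 marked genes. The inhibitor peak at Hnrnpl began 16 bp after the 5′-most listed start and ran past the gene end. The uncovered part of this gene body thus lay almost wholly before that start.

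The hnRNP U genes held the highest control value and, Hnrnpa1l2-ps2 apart, the lowest. Hnrnpu, which encodes the nuclear scaffold protein SAF-A (chromosome 1, 178321108 to 178338891), was covered over 100% in both lists, by a control peak of 19.8 kb and an inhibitor peak of 23.7 kb. It was the 1 splicing factor gene wholly covered under DMSO, against 0.585% of all coding genes, whereas 21 were wholly covered under A939572, against 6.89%. Hnrnpul2 (chromosome 19, 8819401 to 8834143) was covered over 19.5% and 100%, a difference of 80.5 points, the largest when all peaks are used. With peaks of q at most 0.05 alone, Srsf9 and Hnrnph2 differed by 100 points, Srsf6 by 99.2 and Srsf11 by 88.9. Hnrnpul1, an adenoviral E1B-binding protein gene (chromosome 7, 25721161 to 25756268), was covered over 13.8% and 87.4%, a difference of 73.6 points. Both still had a control peak at q of at most 0.05, with widths of 2.88 and 4.40 kb.

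The remaining genes were long or of middle length. Hnrnpc, which binds uridine tracts (chromosome 14, 52073377 to 52104039), was covered over 56.9% and 94.6%. Its inhibitor peak ranked 8 of 35018 by q, with a −log10 q of 29.3 and a fold of 5.74. Hnrnpm was covered over 60.1% and 100%, Hnrnpr over 58.5% and 99.9%, and Hnrnpk, which binds cytosine-rich RNA (chromosome 13, 58391132 to 58403343), over 49.99% and 100%. With control peaks of q at most 0.05 alone, Hnrnpm was covered over 45.7% and Hnrnpr over 31.6% under DMSO, so neither was marked.

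The peaks of the 2 lists also ended at different places along the genes. Each of the 30 genes with an inhibitor peak had exactly 1, which had q of at most 0.05 and was 5.96 to 110 kb wide (median 23.7 kb). Among the 4287 coding genes marked under A939572 at that q, 67.7% also had exactly 1. The share was 98.8% of 81 cytosolic ribosomal protein genes marked in the same way. Under DMSO 23 genes had 1 peak and 8 had 2 or more, and all 8 were among the 10 genes longer than 20 kb. For these control counts no share over all coding genes is given. At the 30 genes with peaks in both lists, the strongest control peak lay wholly inside the inhibitor peak. Over all coding genes with a peak in both lists, this held for 4827 of 8577, or 56.3%, and over those whose peaks had q of at most 0.05 on both sides for 810 of 856, or 94.6%. Of the 30 genes, 4 had weak control peaks alone. The inhibitor peak was 1.20 times (Hnrnpu) to 11.97 times (Hnrnpul2) as wide as the strongest control peak. The median was 2.97 over the 30 genes and 2.87 over the 26 whose control peak had q of at most 0.05. Those 26 control peaks had a median width of 8.85 kb. Over the whole lists, peaks with q of at most 0.05 had a median width of 8.38 kb under DMSO and 14.1 kb under A939572. No width ratio is given for all coding genes.

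**Figure D2:**
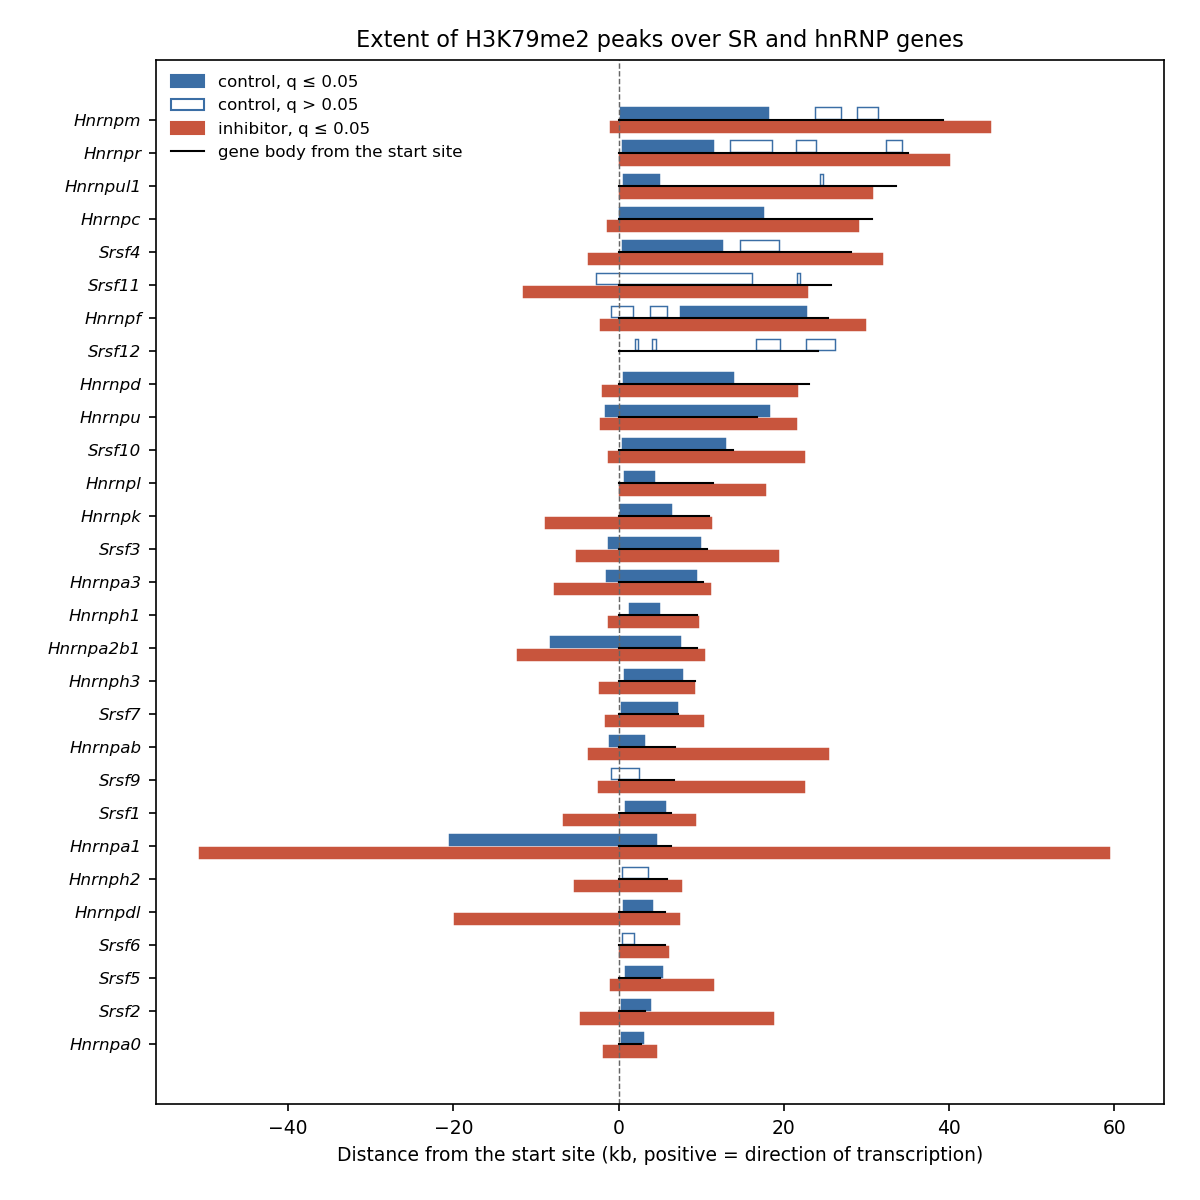
Extent of every peak over the 29 genes with a known strand and a peak, as distance from the start site in kb, with control peaks above and inhibitor peaks below the line of the gene. Open bars are control peaks with q above 0.05. Control peaks end within the gene at most genes, whereas inhibitor peaks run past one or both of its ends at every gene drawn with one except Hnrnpul1.

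Strand and start sites, the 5′-most start listed for a gene in RefSeq (GRCm38.p6), were known for 30 of the 32 genes and unknown for Hnrnpll and Hnrnpul2. Of these 30, 24 had a control peak at q of at most 0.05. In 18 of the 24 the strongest control peak began downstream of the start site, and the median position was 359 bp downstream. In the other 6, Hnrnpa1, Hnrnpa2b1, Hnrnpa3, Hnrnpab, Hnrnpu and Srsf3, it covered the start site. On the 3′ side 20 of the 24 control peaks ended before the gene did, by a median over the 24 genes of 1.92 kb, and by 28.7 kb at Hnrnpul1. Under A939572 21 of the same 24 peaks reached upstream of the start site and 20 ran past the gene end. Over all 24 the median edge lay 2.27 kb upstream of the start and 3.38 kb past the end. Edges were counted for the splicing factor genes alone. Without a share over all coding genes, these positions are not shown to be particular to them.

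The start site itself lay under a control peak in 9 of 30 genes, against 7.37% of coding genes with a strand, and under an inhibitor peak in 24 of 30, against 29.2%. With control peaks of q at most 0.05 alone the count was 6 of 30, against 1.46%. The first 5 kb were covered by at least 50% in 28 of 32 genes under DMSO, against 13.6% of all coding genes, and in 30 under A939572, against 36.6%. For genes without a strand the better covered end stood in for the first 5 kb. Hnrnpul1 shows the contrast within 1 gene: 87.9% of its first 5 kb were covered under DMSO, but 13.8% of its whole body of 35.1 kb. The 10 genes longer than 20 kb had a median of 91.2% over the first 5 kb under DMSO, and the 22 shorter genes 85.1%. When 20 equal bins of the body were averaged over the 30 genes, control coverage was 49.96% in the first bin, 90.8% in the fourth and 20.8% in the last. Inhibitor coverage was 92.6%, 93.3% and 79.3% in the same bins. Of coding genes of like length (5.07 to 32.6 kb, the members excluded), 7810 had a strand, and their control means in these bins were 12.4%, 17.4% and 6.71%.

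**Figure D3:**
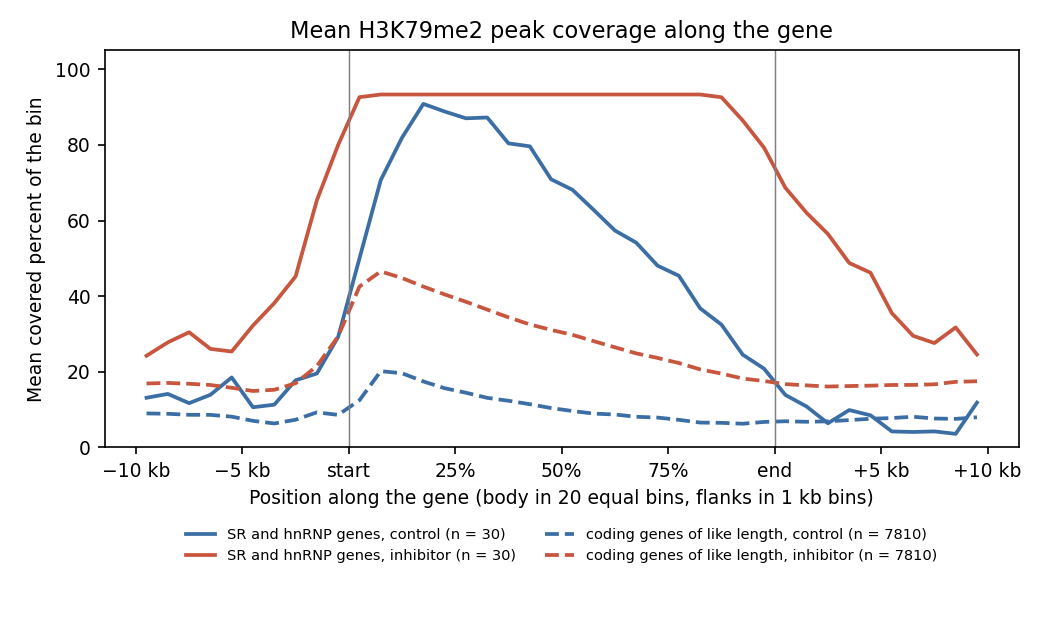
Mean percent of each bin covered by peaks along the gene, from 10 kb before the start site to 10 kb after the gene end, for 30 SR and hnRNP genes (solid) and 7810 coding genes of like length (dashed). Control coverage of the splicing factor genes peaks at 90.8% in the fourth of 20 body bins and declines to 20.8% in the last, while inhibitor coverage stays at 79.3% or more in every body bin.

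At some genes with several listed starts the strongest control peak began at a later one. At Hnrnpf it began 7444 bp after the first of 4 listed starts but 20 bp before the third. A weak control peak there (−log10 q of 0.348) covered the first start. At Hnrnph1 the strongest control peak began 1292 bp after the first of 5 starts and 9 bp before the last, and at Srsf4 33 bp before the last of 3. These genes were scored from the first start, so their offsets above depend on that choice. At some genes, among them Hnrnpl, Hnrnph1 and Hnrnpul1, the gene body begins upstream of the first listed start. The covered percent of the body counts that stretch too.

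Some peaks were shared with neighbours, so part of their width cannot be given to the splicing factor gene. Of the 32 genes, 11 overlap another coding gene, against 3841 of all 21887 coding genes. At least 1 other coding gene was also touched by 21 of the 30 inhibitor peaks, against 6 of the 26 control peaks at q of at most 0.05. In 9 of the 30 genes with a strand, another coding gene started within 1 kb upstream, or at most 500 bp inside, and ran the opposite way. No share over all coding genes is given for touched neighbours or opposite pairs, so neither count is shown to be particular to these genes. Among these pairs are Hnrnpa2b1 with Cbx3 (starts 722 bp apart) and Hnrnpa1 with Cbx5 (545 bp apart). Both partners encode HP1 proteins of heterochromatin, and the human HNRNPA2B1-CBX3 promoter pair is known as a chromatin-opening element that resists silencing. The control peak at Hnrnpa2b1 was 15.7 kb wide and began 8.35 kb upstream of its start, so that 63.0% of Cbx3 was covered, and 89.2% under A939572. At Hnrnpa1 the control peak of 25.1 kb began 20.5 kb upstream, and 58.9% of Cbx5 was covered. The inhibitor peak of 110 kb there ran from 50.8 kb upstream to 53.1 kb past the gene end, over Cbx5, Nfe2 and Copz1. The other pairs varied. Rmi1, whose start lies 131 bp from that of Hnrnpk, was covered over 9.35% under DMSO and 99.4% under A939572, and Gla, 174 bp from Hnrnph2, over 1.43% and 57.8%. Pbld2 beside Hnrnph3 was covered over 5.92% and 6.44%, Mfsd11 beside Srsf2 over 2.34% and 23.7%, and Lrrc40 beside Srsf11 over 43.0% and 37.6%. With peaks of q at most 0.05 alone, Lrrc40 was covered over 0% and 37.6%.

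Of 25 SR-related genes, which encode further proteins with arginine-serine stretches, 9 were marked under DMSO and 22 under A939572, with a median difference of 45.6 points, and 15 had a control peak at q of at most 0.05. Tra2b, an exon activator of the transformer type, was covered over 97.5% and 100%, and Rsrp1 over 94.4% and 100%. Luc7l and Scaf1 had the largest gains, from 14.3% to 100% and from 3.76% to 80.3%, whereas Rsrc1 was covered over 19.2% and 11.8%. With peaks of q at most 0.05 alone, Rsrc1 was covered over 0% and 2.37%. Of 21 hnRNP-type genes under other symbols, 7 were marked under DMSO and 18 under A939572, with a median difference of 38.1 points and 13 with such a control peak. Raly was covered over 83.1% and 100%, and the cold-inducible Cirbp over 10.4% and 100%. Pcbp3 and Pcbp4 were covered over 0.338% and 0% under A939572.

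Of 32 core spliceosome genes, 2 were marked under DMSO and 27 under A939572, with a median difference of 59.2 points, and 9 had a control peak at q of at most 0.05. The U1 component Snrnp70 was covered over 21.8% and 100%, U2af1, which reads the 3′ splice site, over 30.6% and 100%, and Sf3b1 of the U2 particle over 42.5% and 100%. Of the unmarked genes under A939572, Snrnp200, the U5 helicase, was covered over 6.20% and 24.4%. Of 11 SR protein kinases and import receptors, 2 were marked under DMSO and 10 under A939572, with a median difference of 48.5 points. Clk1, which phosphorylates SR proteins in the nucleus, lay just over the 50% threshold with the control peaks and was covered over 100% with the inhibitor peaks, Srpk1, the cytoplasmic kinase, over 45.9% and 100%, and the muscle kinase gene Srpk3 over 0% in both lists. Of 19 splicing regulators restricted to neurons, muscle or epithelium, 0 were marked in either list. The median difference was −2.90 points with all peaks and 0 with peaks of q at most 0.05, and 0 genes had a control peak at that q. Nova1 was covered over 7.11% and 0%, and Rbm24 over 23.2% and 0%, at both genes by weak DMSO peaks alone.

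The SR and hnRNP genes were set against 2 groups that are also transcribed in nearly all cells. Under A939572 81 of 84 cytosolic ribosomal protein genes and 30 of 39 proteasome subunit genes were marked. Under DMSO 43 and 3 of them were marked, and 22 and 6 had a control peak at q of at most 0.05, or 26.2% (18.0 to 36.5) and 15.4% (7.25 to 29.7), against 81.2% (64.7 to 91.1) of the SR and hnRNP genes. Ribosomal protein genes are shorter, with a median of 3.18 kb against 10.99 kb. Coding genes of like length had such a control peak in 416 of 9732 cases, 4.27% (3.89 to 4.69).

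Among genes marked under A939572 at q of at most 0.05, a control peak at that q touched 26 of 30 SR and hnRNP genes, 86.7% (70.3 to 94.7). The same share was 18.2% (17.1 to 19.4) of 4287 coding genes, 17.1% (15.7 to 18.7) of 2292 genes of like length and 27.2% (18.7 to 37.7) of 81 ribosomal protein genes. It was 68.2% (47.3 to 83.6) of 22 SR-related genes and 66.7% (43.7 to 83.7) of 18 hnRNP-type genes under other symbols, whose intervals overlap that of the SR and hnRNP genes, and 36.4% (19.7 to 57.0) of 22 core spliceosome genes. The intervals count genes as if each were separate and show counting error alone, and with 1 library per condition no test of these differences was made.

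**Figure D4:**
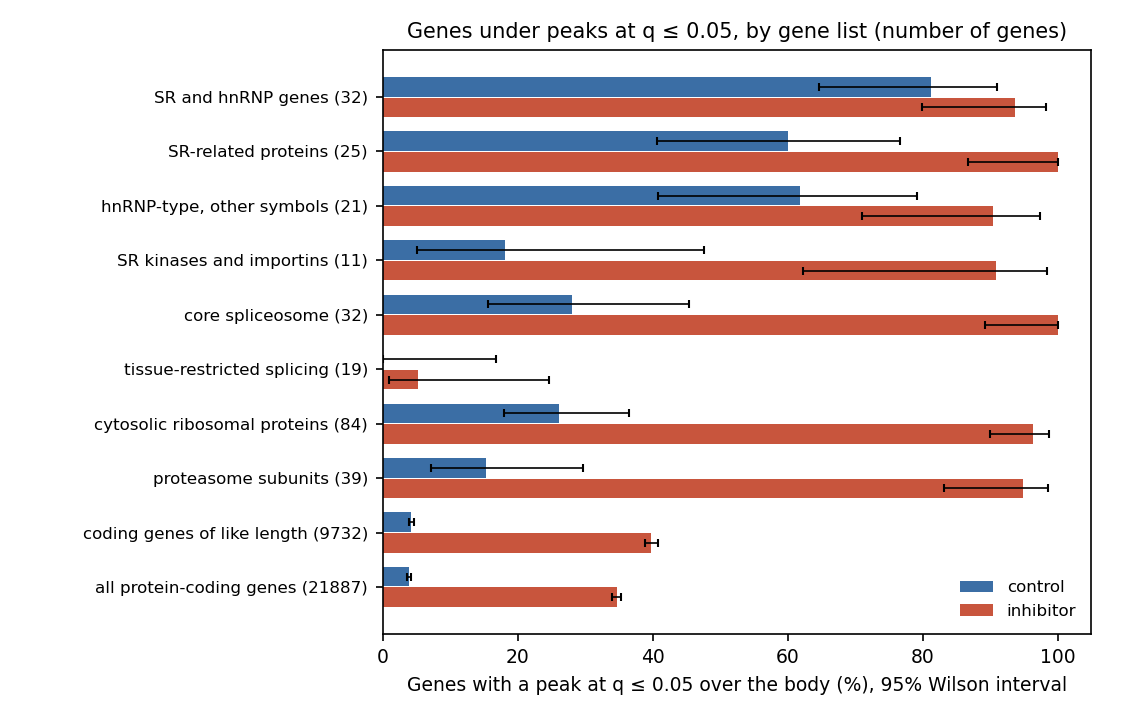
Percent of genes in each list with a peak at q of at most 0.05 over the body, in the control and inhibitor libraries, with 95% Wilson intervals over genes and the number of genes in brackets. The control bar is at 81.2% for SR and hnRNP genes, 26.2% for ribosomal protein genes and 3.92% for all coding genes.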

How the data were processed

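H3K79me2 ChIP-seq peaks of 2 libraries, 1 from DMSO and 1 from A939572 cultures, were analysed. BWA, MACS2 2.1.0 and mm10 are named, without roles, in the submitters' processing notes; no source used here gives the options. Peaks were deposited separately for each library. For every broad peak the authors deposited a fold enrichment, a −log10 p, a −log10 q and a score, which the values show to be −log10 q times 10 without its decimals. Depth is unknown. In either list −log10 p went down to 1.00.

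Peaks were merged and intersected with RefSeq gene bodies of GRCm38.p6 (mm10), using Python 3.11.15 with pandas 2.3.3, numpy 2.4.6 and scipy 1.17.1. A gene was marked from 50% coverage, differences were counted from 25 points, the q filter was −log10 q of at least 1.301, and 1 bp of overlap sufficed for a peak to touch a gene. Strand and starts came from the RefSeq promoter table. Shares have 95% Wilson intervals. The coverage function was tested on simulated peaks.

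Members and lists were chosen with earlier results of these data known, and the protein families after the values were seen. Every Srsf and Hnrnp gene could be named. Of each other list, the rule allowed up to 2 genes with the largest gain, up to 2 with the largest loss of at least 25 points, those not marked under A939572, and those with a control peak at q of at most 0.05. Alternatives were other peak filters, merging within 1 kb, other thresholds, the first 5 kb, and leaving out overlapping genes.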

Additional observations from a re-analysis of the deposited data

How the results depend on the processing

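The number of SR and hnRNP genes marked under DMSO, 22, came to 11 with −log10 q of at least 5, to 9 with fold enrichment of at least 3 and to 7 when 80% coverage was required. The 18 genes with a gain of 25 points or more under A939572 came to 9 over the first 5 kb. The number higher under DMSO by 25 points, 0, came to 1 (Srsf12) at a difference of 10 points. The 26 genes with a control peak at q of at most 0.05 came to 16 at −log10 q of at least 5, 13 at fold of at least 3 and 17 of 21 when genes overlapping another coding gene were left out, choices made after the data had been seen. The other alternatives moved these counts by at most 1.5 times, and the inhibitor count lay between 27 and 30 except for 20 of 21 without overlapping genes. No difference of at least 25 points changed sign, but those of Hnrnpul2 (80.5), Srsf6 (72.3) and Srsf9 (63.2) were 0 with fold enrichment of at least 3, as was that of Srsf9 with −log10 q of at least 5, since no peak at these genes passed in either list. Leaving out a library was not possible with 1 per condition. No paired analysis was possible because each condition had 1 library and no result came from a test. With the depth unknown, a gene without a peak cannot be called unmethylated.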

Other observations

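The gene table also lists 2 pseudogenes with such symbols. Srsf3-ps (chromosome 11, 98624368 to 98625662) had 0% coverage in both lists, and Hnrnpa1l2-ps (chromosome 13, 74864232 to 74865733) was covered over 19.3% under DMSO and 0% under A939572.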
